A study of Gallus gallus with 6 samples.

Results

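Cadherins are calcium-dependent adhesion proteins that join neighbouring cells, and catenins are the proteins that bind their cytoplasmic tails. The 9 genes described here are the cadherins CDH2, CDH11, CDH3, CDH4 and CDH13 and the catenins CTNNA1, CTNNB1, CTNND1 and JUP. They were chosen by name, with earlier results of these data known. Every probe set whose platform annotation gives exactly one of these symbols was used, which gave 22 of the 38535 probe sets of the array. RNA was measured on Affymetrix chicken arrays in dermal myofibroblasts, contractile fibroblasts that lay down matrix, grown from skin explants of brown Leghorn embryos at day 10. All cultures were kept in medium with fetal bovine and chicken serum. For 48 h they received either TGFBR1 Kinase Inhibitor II at 500 nM, a small-molecule inhibitor of the kinase activity of a TGF-beta receptor, or its solvent DMSO at 0.1%. Each group had 3 arrays, labelled as biological replicates. Whether each culture was started from its own embryo is not stated in the labels, and the p-values therefore cover only the spread among these 6 arrays.

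In an adherens junction the tail of a classical cadherin binds beta-catenin (CTNNB1) or its close relative plakoglobin (JUP), which in turn bind alpha-catenin (CTNNA1), a link to actin filaments. The catenin p120 (CTNND1) binds the tail nearer the membrane and holds the cadherin at the cell surface. Beta-catenin also acts in the nucleus with TCF factors in the WNT pathway. Fibroblasts and myofibroblasts are known for CDH2 and CDH11, whereas epithelia are known for CDH1 and CDH3.

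The values are log2 intensities on which dim probe sets gather at a floor of about 2 to 3. A probe set was tested if it reached a log2 value of 4 in at least 3 of the 6 arrays, whatever their group, and 16356 to 16594 probe sets per array reached that value. Of the 22 probe sets, 16 from 8 genes were tested, and each of these was above 4 in all 6 arrays. The other 6 stayed between 1.85 and 3.18 in every array and were not tested: both probe sets of CDH4, 2 of CTNNA1 and 2 of CTNND1. "Rose" and "fell" below mean an adjusted p under 0.05 in limma (inhibitor minus DMSO, two-sided, Benjamini-Hochberg over 16567 probe sets), and errors of differences are standard errors of that fit with 3 arrays per group. In bulk RNA, fewer cells of a type and less RNA per cell cannot be told apart.

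With the inhibitor, the mesenchymal cadherin CDH11 and the catenin JUP fell, and the membrane-anchored cadherin CDH13 rose. CTNNB1 stayed within 0.15 of no difference on the log2 scale by its 95% interval in that fit. Of the 16 tested probe sets 3 rose (CDH13) and 3 fell (2 of CDH11, 1 of JUP). Over all tested probe sets 13.8% were called, 7.27% upward and 6.51% downward. The brighter CDH2 probe set was higher in all 3 inhibitor arrays but missed the threshold (limma adjusted p 0.0571; adding the replicate number as a block gave 0.0209). That block made 7 of the 16 past the threshold, against 28.1% of all tested probe sets. The groups did not overlap for 9 of the 16, 5 higher and 4 lower with the inhibitor, against 35.8% of all tested probe sets. The median size of the difference was 0.49 over the 16 and 0.25 over all tested probe sets (log2).

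**Figure D1:**
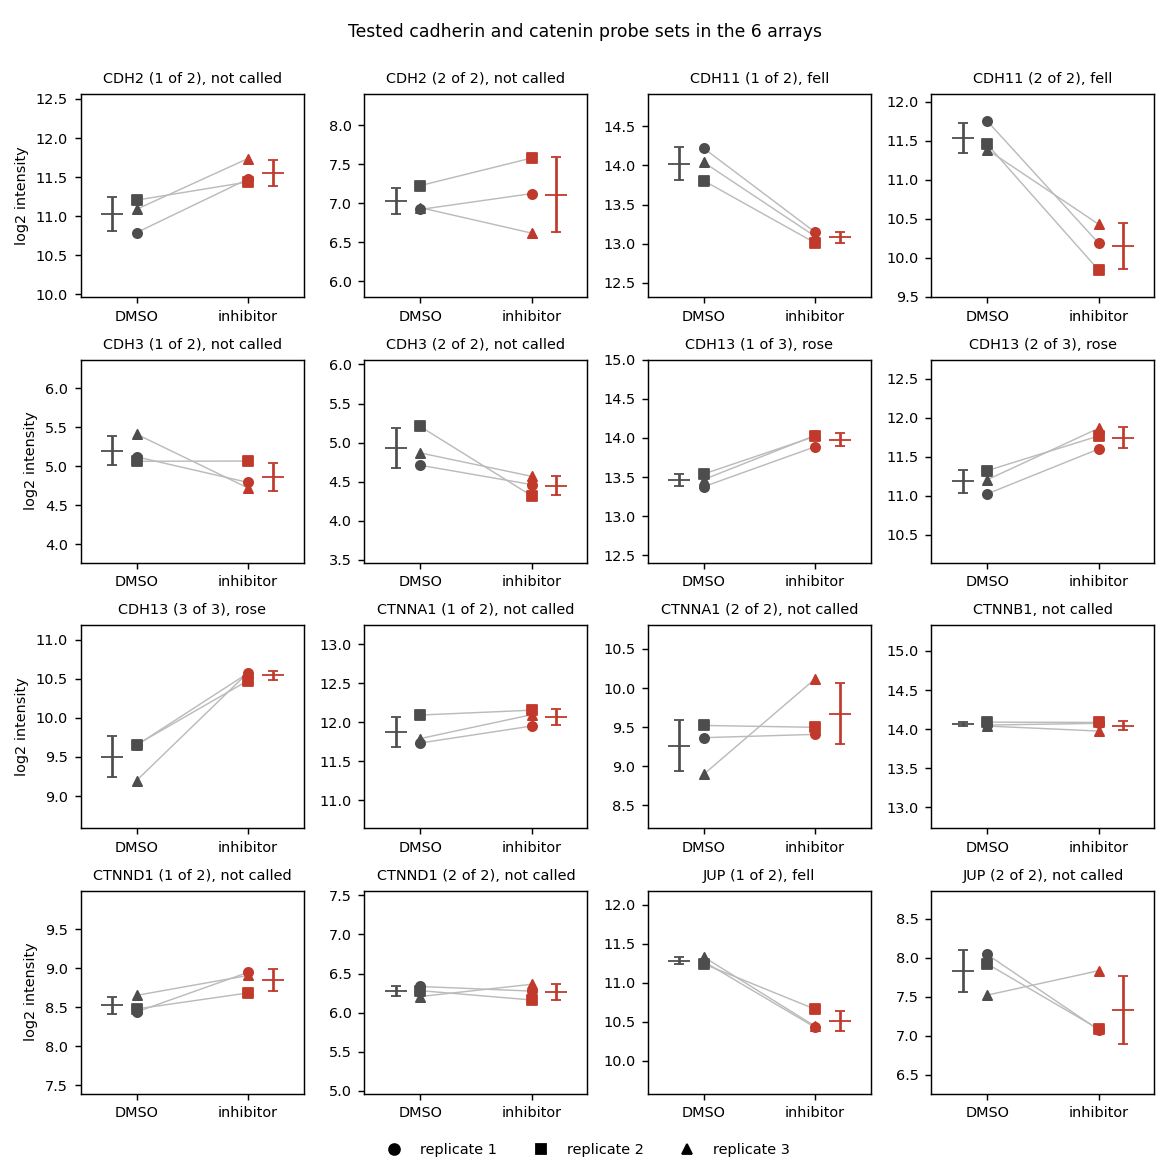
Log2 intensity (vertical axis) of each tested cadherin and catenin probe set in the DMSO and inhibitor arrays; symbols mark the replicate number, grey lines join arrays of the same number, and bars are the mean ± SD of 3 arrays. Each panel spans the same range of log2 units around its own values, and probe sets of a gene are numbered from the brightest in DMSO. Both CDH11 panels, the 3 CDH13 panels and the first JUP panel separate the groups, while the CTNNB1 points lie between 13.97 and 14.09.

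CDH11, also called OB-cadherin, is a type II classical cadherin of mesenchymal cells and fibroblasts. Its brighter probe set read 14.22, 13.81 and 14.04 in DMSO arrays 1, 2 and 3 and 13.15, 13.01 and 13.09 in the inhibitor arrays. The lowest DMSO array lay above the highest inhibitor array, and the inhibitor arrays were close together. The fall was -0.94 ± 0.11 (1.92-fold lower, limma adjusted p 0.00429). The dimmer probe set, of the _a_at class that can detect several transcripts of a gene, read 11.75, 11.45 and 11.38 in DMSO and 10.19, 9.84 and 10.43 with the inhibitor. Here too all inhibitor arrays were below all DMSO arrays in every pairing of arrays. This probe set fell by 1.38 ± 0.18 on the log2 scale, 2.60-fold lower (limma adjusted p 0.00558). A larger fall was seen in 2.17% of all tested probe sets, and in 4.26% for the brighter one. Leaving out any single array kept both CDH11 calls, with falls from -1.05 to -0.84 for the brighter and from -1.52 to -1.22 for the dimmer probe set (limma adjusted p at most 0.0254).

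CDH2, N-cadherin, is a type I classical cadherin of fibroblasts, muscle and nerve cells. Its brighter probe set, of the _s_at class that can bind transcripts of more than 1 gene, read 10.79, 11.21 and 11.09 in DMSO and 11.48, 11.44 and 11.74 with the inhibitor. Every inhibitor array was above every DMSO array, with a gap of 0.23 in replicate 2 against 0.69 and 0.65 in replicates 1 and 3. The difference was 0.52 ± 0.14 (95% interval 0.19 to 0.86), with the limma adjusted p of 0.0571 given above. The dimmer CDH2 probe set read 6.92, 7.22 and 6.94 in DMSO and 7.12, 7.58 and 6.62 with the inhibitor. Its groups overlapped, replicate 3 moved opposite to the others, and the difference was 0.08 ± 0.26 (limma adjusted p 0.883).

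CDH13, T-cadherin, is held in the membrane by a lipid anchor, has no cytoplasmic tail and so binds no catenin. It is known in mammals as a receptor for adiponectin. Its brightest probe set read 13.38, 13.54 and 13.47 in DMSO and 13.89, 14.02 and 14.03 with the inhibitor, a rise of 0.52 ± 0.07 (1.43-fold, limma adjusted p 0.00696). The next one read 11.02, 11.32 and 11.20 in DMSO and 11.60, 11.77 and 11.86 with the inhibitor, a rise of 0.56 ± 0.11 (limma adjusted p 0.0239). For both, all inhibitor arrays lay above all DMSO arrays and the 3 same-numbered pairs moved by similar amounts, 0.48 to 0.57 and 0.44 to 0.66. The dimmest probe set, of the _s_at class, read 9.65, 9.66 and 9.20 in DMSO and 10.57, 10.48 and 10.58 with the inhibitor, 2.06-fold higher (1.04 ± 0.15, limma adjusted p 0.00736). For the middle probe set limma's adjusted p was 0.067 to 0.0743 when DMSO 1, DMSO 3, inhibitor 2 or inhibitor 3 was left out, which ended the call, while the other 2 kept theirs without each single array.

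CDH3 is P-cadherin in mammals, a cadherin of epithelia, and the chicken gene carries the synonym K-CAM. Both of its probe sets were dim and close to the filter. The first read 5.12, 5.06 and 5.41 in DMSO and 4.79, 5.07 and 4.72 with the inhibitor, and the groups overlapped. Its difference was -0.34 ± 0.17 (limma adjusted p 0.233). The second read 4.71, 5.21 and 4.87 in DMSO and 4.46, 4.32 and 4.57 with the inhibitor, a difference of -0.48 ± 0.17 (limma adjusted p 0.123). Its groups did not overlap, and it did not pass with the replicate block either (limma adjusted p 0.114). CDH4, R-cadherin, a type I cadherin named for the retina, read 2.45 to 2.64 on 1 probe set and 1.98 to 2.01 on the other over all 6 arrays, at the floor in both groups.

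**Figure D2:**
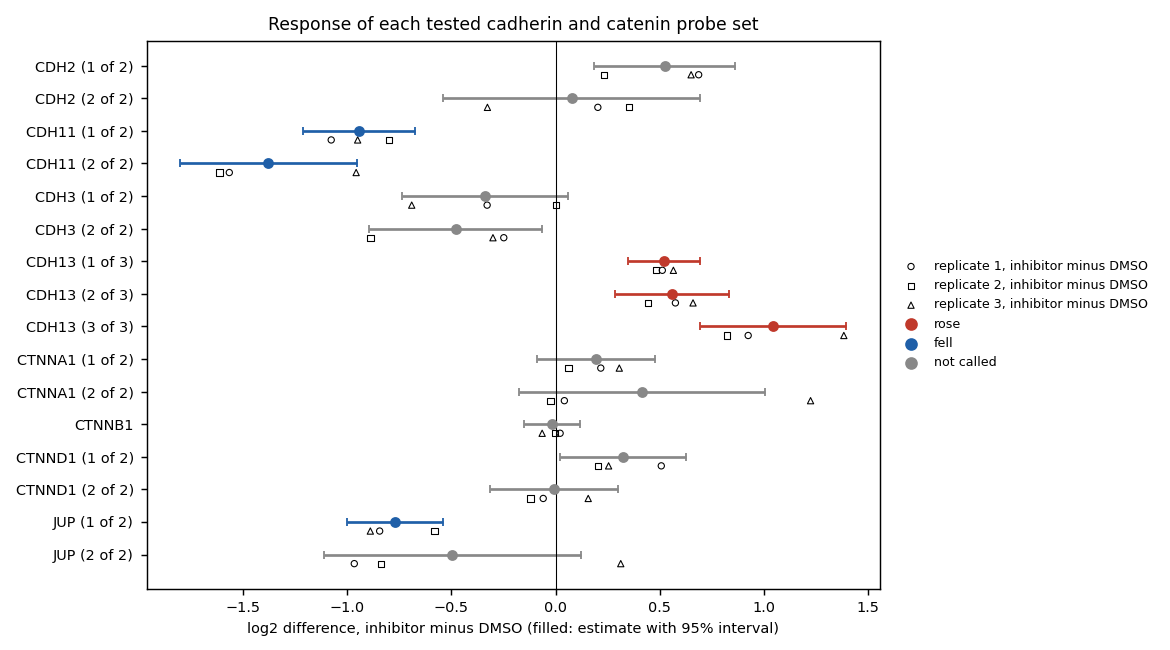
Log2 difference, inhibitor minus DMSO (horizontal axis), of each tested probe set with its 95% interval from limma; open symbols are the differences of same-numbered arrays, and colours give the call. Both CDH11 probe sets and the first of JUP lie left of 0, the 3 of CDH13 lie right of it, and the interval of CTNNB1 runs from -0.15 to 0.12.

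CTNNB1, beta-catenin, was measured by 1 probe set. It read 14.05, 14.09 and 14.04 in DMSO and 14.07, 14.09 and 13.97 with the inhibitor. The groups overlapped, and the difference was -0.015 ± 0.056 (limma adjusted p 0.895). Probe sets this bright can respond less than in proportion, and how far this one does was not tested. The same limit applies to the brighter CDH11 and the brightest CDH13 probe sets. Both differed less between the groups than the dimmer probe sets of their genes.

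JUP, plakoglobin, can take the place of beta-catenin in adherens junctions and is also part of desmosomes. Its brighter probe set read 11.27, 11.24 and 11.33 in DMSO and 10.43, 10.66 and 10.44 with the inhibitor. The groups were separated by more than the spread within either, and the transcript fell by 0.77 ± 0.10 on the log2 scale (1.71-fold lower, limma adjusted p 0.00493). The call held without each single array (-0.85 to -0.73). The dimmer JUP probe set read 8.04, 7.92 and 7.52 in DMSO and 7.08, 7.09 and 7.83 with the inhibitor. Replicates 1 and 2 moved down by 0.97 and 0.84, replicate 3 moved up by 0.31, and the groups overlapped (-0.50 ± 0.26, limma adjusted p 0.258). Without inhibitor 3 this difference was -0.75 (limma adjusted p 0.0745).

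CTNNA1, alpha-catenin, had 2 tested probe sets, both of the _s_at class. The brighter read 11.73, 12.09 and 11.79 in DMSO and 11.95, 12.15 and 12.09 with the inhibitor (0.195 ± 0.118, limma adjusted p 0.329). The dimmer read 9.36, 9.52 and 8.89 in DMSO and 9.41, 9.50 and 10.12 with the inhibitor (0.41 ± 0.25, limma adjusted p 0.321). In both the groups overlapped, and in the dimmer one replicate 3 moved by 1.22 while replicates 1 and 2 moved by 0.04 and -0.02. CTNND1, p120, also had 2 tested probe sets of that class. The brighter read 8.44, 8.48 and 8.65 in DMSO and 8.95, 8.68 and 8.91 with the inhibitor. These groups were only just apart (0.32 ± 0.13, limma adjusted p 0.147). The dimmer CTNND1 probe set stood at 6.21 to 6.33 in DMSO and 6.16 to 6.36 with the inhibitor (-0.01 ± 0.13, limma adjusted p 0.98).

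Whether relatives responded unequally was asked within arrays, by the log2 ratio of 2 probe sets of the same array, each gene by its brightest tested probe set. The size of such a ratio depends on the probes and only its change between groups was read. That change equals the difference between the changes of the 2 probe sets given above, so it is not separate evidence. The ratio of CDH2 to CDH11 was higher by 1.46 with the inhibitor, going from -3.00 ± 0.42 in DMSO to -1.53 ± 0.16 (SD, n = 3). All 3 inhibitor arrays lay above all 3 DMSO arrays, and the exact permutation test gave a two-sided p of 0.1, the smallest that 3 against 3 arrays allow (0.15 adjusted over the 3 ratios). The other 3 pairings of CDH2 and CDH11 probe sets gave 1.02 to 1.90 in the same direction. That direction was already set, since both CDH11 probe sets fell and neither CDH2 probe set was lower. The ratio of CTNNB1 to JUP differed by 0.76, from 2.78 ± 0.07 to 3.53 ± 0.11 (SD, n = 3), again without overlap (exact two-sided p 0.1, adjusted 0.15). With the dimmer JUP probe set it was 0.48, and the exact p was 0.3. The ratio of CTNNB1 to CTNND1 differed by -0.34 (exact two-sided p 0.2, adjusted 0.2), and with the dimmer CTNND1 probe set by -0.01 (exact p 0.9). A ratio of CDH2 to CDH4 was not computed, since CDH4 was at the floor.

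**Figure D3:**
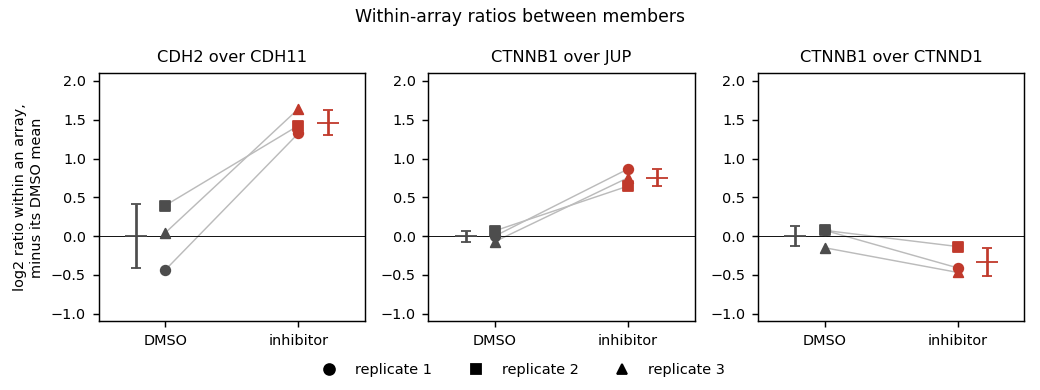
Change of the log2 ratio between 2 members within an array (vertical axis, with the mean of the DMSO arrays set to 0); symbols mark the replicate number and bars are the mean ± SD of 3 arrays. The CDH2 to CDH11 ratio was 1.46 higher and the CTNNB1 to JUP ratio 0.76 higher with the inhibitor, both without overlap between groups, whereas the CTNNB1 to CTNND1 ratio differed by -0.34.

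The genes whose profiles over the 6 arrays were most like those of CDH11 and CDH13, the members with the largest difference on any tested probe set (-1.38 and 1.04), were found by the root mean square distance between centred log2 profiles among 7790 genes. Each gene entered by its brightest probe set, which for CDH11 and CDH13 differed by -0.94 and 0.52, the latter smaller than the -0.77 of JUP. For CDH11 the nearest were COL12A1, a collagen on the surface of fibrils (distance 0.05; difference -0.96 ± 0.09), VMP1 (0.06; -0.91 ± 0.08) and PTP4A3 (0.07; -0.80 ± 0.14). For CDH13 they were MTIF3 (0.04; 0.50 ± 0.10), IGHMBP2 (0.04; 0.50 ± 0.13) and DNAAF1 (0.04; 0.56 ± 0.13). IGHMBP2 itself did not pass the test (limma adjusted p 0.0573). Since these genes were picked by likeness over the same 6 arrays, their differences had to lie close to those of CDH11 and CDH13.

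Most other cadherins on the array were at the floor. Of 31 further cadherin, protocadherin and desmosomal cadherin genes named on it, 28 were not tested, and 27 of these stayed under 4 in every array on every probe set. The remaining one, the endothelial CDH5, reached 4.03 at most. E-cadherin, CDH1, read 2.11 to 2.16. In the gene order of assembly GRCg7b CDH11 lies between CDH5 and CDH8, and CDH3 lies next to CDH1; CDH8 read 1.91 to 3.22. The tested genes were FAT1, PCDH9 and PCDH18, and none of the 3 passed (limma), against 15.7% of all 8124 tested genes, with 1 at an unadjusted p under 0.05. That was PCDH9, a protocadherin, at -0.96 ± 0.35 (limma adjusted p 0.125; the replicate block gave 0.018). FAT1, a giant atypical cadherin, stood at 0.27 ± 0.19 (limma adjusted p 0.406). Its 3 dimmer tested probe sets stood at 0.58 (limma adjusted p 0.0638), 0.60 (0.0633) and -0.02 (0.95). By the brightest probe set of each gene, the median of the 3 genes was -0.43.

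A further list, drawn from textbook knowledge, holds genes named as catenin relatives, junction plaque proteins or proteins linked to them. Of its 18 tested genes 3 rose and 1 fell, where 8.17% of all tested genes rose and 7.5% fell. The list's median difference was 0.25, against 0.01 over all tested genes. NECTIN3, an immunoglobulin-type adhesion protein of adherens junctions, read 7.85, 7.09 and 7.32 in DMSO and 8.69, 8.43 and 8.74 with the inhibitor, a rise of 1.20 ± 0.22 (2.30-fold, limma adjusted p 0.0166). ARHGAP10, whose place in this list was not checked further, rose by 0.86 ± 0.16 (limma adjusted p 0.0184). The same holds for the place of CTNNBL1. NUMB, an endocytic adaptor, rose by 0.62 ± 0.13 (limma adjusted p 0.0308), and its 2 dimmer probe sets did not pass (0.66 and 0.57). CTTN, cortactin, which promotes branched actin, fell by 0.32 ± 0.07 on the log2 scale (limma adjusted p 0.0335), and of its 4 dimmer probe sets 2 fell by 0.63 and 0.56. Each of these 4 calls was lost without at least 3 of the 6 arrays taken out singly, with limma adjusted p up to 0.0631, 0.0731, 0.0986 and 0.107 for NECTIN3, ARHGAP10, NUMB and CTTN. With the replicate block 8 rose and 1 fell, where that fit called 31.6% of all tested genes in either direction. SHROOM3 was among the 8, at 1.09 ± 0.34 (limma adjusted p 0.088, and 0.00177 with the block). Its dimmer probe set passed without the block (1.06, limma adjusted p 0.0473). Vinculin, VCL, which binds alpha-catenin under tension, stood at 0.06 ± 0.07 (chosen for its role after its values were seen).

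Another list was named for the complex that marks beta-catenin for destruction. It also holds regulators outside that complex, such as TNKS, TNKS2 and DVL1. None of its 11 tested genes passed the test (limma, brightest probe set of each gene), against 15.7% of all tested genes. Of the 11, 2 were at an unadjusted p under 0.05. With the replicate block, which called 31.6% of all tested genes, 1 passed the threshold, GSK3A (-0.35 ± 0.10). The median difference of the 11 was -0.18. The brightest, the kinase CSNK1A1 and the ubiquitin ligase subunit FBXW11, stood at 0.12 ± 0.14 and -0.24 ± 0.12. Dimmer probe sets of AXIN1 (0.49, limma adjusted p 0.0486) and GSK3A (-0.40, 0.0306) passed. Of 8 tested TCF partners and known targets of beta-catenin, 1 fell and none rose (limma), where 7.5% of all tested genes fell and 8.17% rose, with 4 at an unadjusted p under 0.05 and a median difference of 0.07. With the replicate block 2 fell, NOTUM and MYC (limma adjusted p 0.0474), and 2 rose, AXIN2 and CCND1 (0.04997). NOTUM, a secreted enzyme that inactivates WNT proteins, read 9.71, 8.46 and 9.43 in DMSO and 7.64, 7.24 and 7.69 with the inhibitor, a fall of -1.68 ± 0.33 (3.20-fold lower, limma adjusted p 0.023). Among the fits that left out 1 array, the call held only without DMSO 2 (-2.05). Without each of the other 5 arrays it was lost, with limma adjusted p up to 0.081 and a difference of -1.42 at its smallest. The dimmer NOTUM probe set fell too (-2.35, limma adjusted p 0.0312). AXIN2, a feedback inhibitor that WNT signalling induces, named after its values were seen, stood at 0.85 ± 0.27 (limma adjusted p 0.0895; the replicate block gave 0.0251). The TCF-family factor LEF1 read 2.44 to 3.36 and was not tested.

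The transcription factors known to repress cadherin genes, mainly CDH1, moved in both directions. All 8 were tested, with a median difference of 0.29; 2 rose and 2 fell, where 8.17% of all tested genes rose and 7.5% fell. With the replicate block 3 rose and 2 fell, against 31.6% of all tested genes called in either direction. The gene that the block added was TWIST1, at 0.85 ± 0.24 (limma adjusted p 0.0661, and 0.00366 with the block). SNAI1, Snail, read 10.27, 10.37 and 10.29 in DMSO and 12.45, 12.51 and 12.41 with the inhibitor. The spread within each group was small beside the gap between them, and the rise was 2.15 ± 0.07 (4.43-fold, limma adjusted p 0.000182). ZEB2 rose 2.57-fold, from 10.13, 10.13 and 10.23 to 11.41, 11.57 and 11.61 (1.36 ± 0.09, limma adjusted p 0.000716). Dimmer probe sets of SNAI1 and ZEB2 rose too, by 2.31 and 1.69, and both genes kept their call without each single array. SNAI2, Slug, fell from 9.37, 8.88 and 8.58 to 8.23, 7.34 and 7.54 (limma adjusted p 0.0401), and TWIST2 fell by 0.58 ± 0.13 on the log2 scale (limma adjusted p 0.035). The TWIST2 call was lost without any single array (limma adjusted p 0.0528 to 0.102), and that of SNAI2 whenever an array besides inhibitor 1 was left out. ZEB1 and TCF3 stood at -0.06 ± 0.09 and 0.11 ± 0.10.

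**Figure D4:**
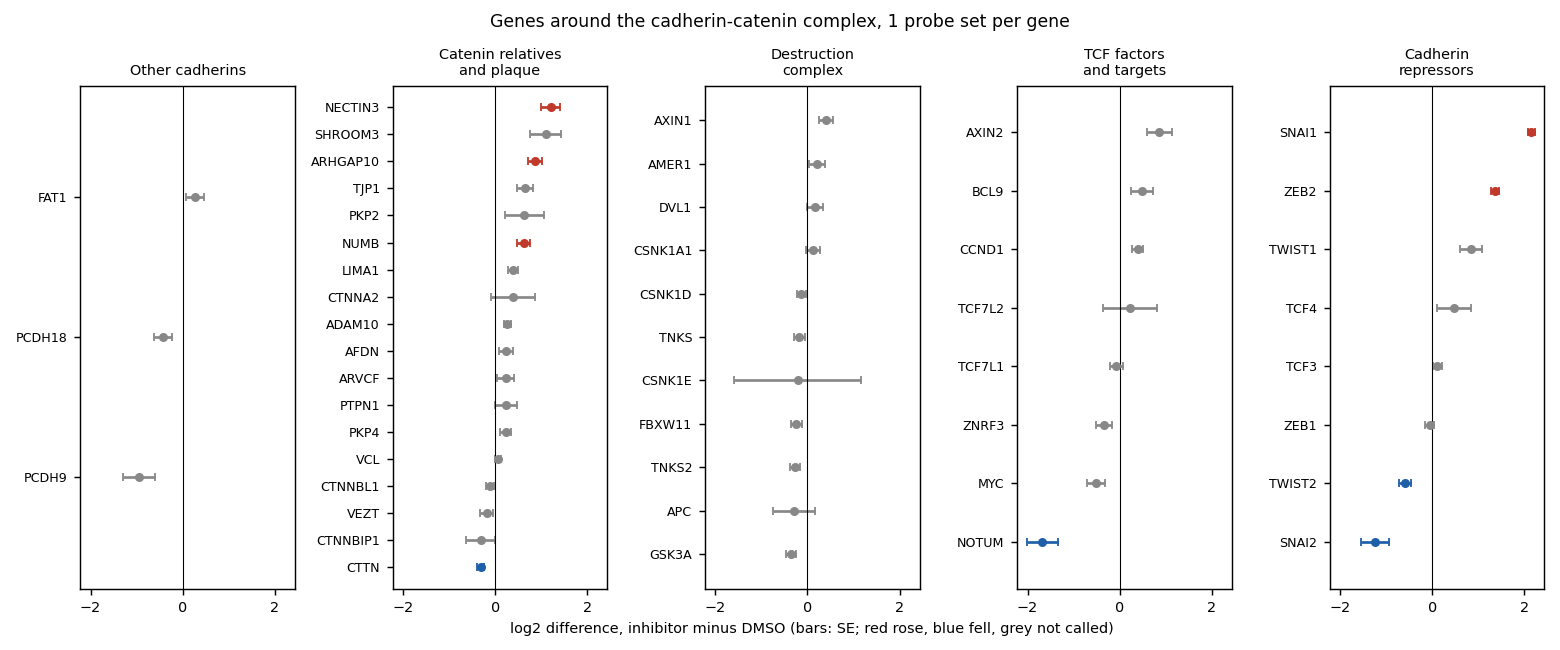
Log2 difference, inhibitor minus DMSO (horizontal axis, bars are SE), for tested genes of 5 lists around the cadherin-catenin complex, each gene by its brightest tested probe set. Of 48 genes, 5 rose (red) and 4 fell (blue), where 8.17% of all tested genes rose and 7.5% fell. SNAI1 at 2.15 and NOTUM at -1.68 lie at the ends.

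Fibroblast markers were all detected: 10 of 10 passed the filter, and vimentin, VIM, stood at 15.8 in both groups. Their summed level (intensities added, then put on the log2 scale) was 17.5 to 17.7 in DMSO and 17.3 to 17.5 with the inhibitor. Of the 10, 2 were called, against 15.7% of all tested genes. PDGFRB, a growth factor receptor, rose by 1.20 ± 0.18 (limma adjusted p 0.00919). POSTN, periostin, a matrix protein, fell by 2.81 ± 0.55 on the log2 scale (7.01-fold lower, limma adjusted p 0.0217), a call lost without each array but inhibitor 3 (limma adjusted p up to 0.078). Its dimmer probe set fell by 3.58 (limma adjusted p 0.00751). Of 28 markers of epithelium, endothelium, skeletal muscle, neural crest derivatives and leukocytes named on the array, 7 passed the filter. Of these 7, 2 were called (limma), against 15.7% of all tested genes. The summed level of the 8 epithelial markers was 7.22 to 9.71 in DMSO and 13.1 to 13.5 in inhibitor arrays. KRT7, measured by an _s_at probe set, alone rose among them. It read 5.45, 9.56 and 8.87 in DMSO and 13.09, 13.53 and 13.35 with the inhibitor. The inhibitor readings lay close to the summed level of those arrays, and the DMSO readings were far apart. The rise was 5.37 on the log2 scale (limma adjusted p 0.0189). Its call was lost without inhibitor 1, 2 or 3 (limma adjusted p up to 0.0607). KRT14, the other tested epithelial marker, stood at 0.20 (limma adjusted p 0.803). CDH1, EPCAM, TP63, KRT5, KRT75 and CLDN1 were under 4 in all arrays. The 6 endothelial markers summed to 6.28 to 6.84 in DMSO and 5.84 to 6.36 with the inhibitor, with CDH5, KDR, TEK, TIE1 and VWF not tested. PECAM1 was lower (-0.82 ± 0.20, limma adjusted p 0.0409), a call lost without any single array (limma adjusted p 0.0696 to 0.103). Its 2 other tested probe sets stood at -1.90 (limma adjusted p 0.00714) and -1.01 (0.165). The 5 neural crest, glial and melanocyte markers summed to 7.72 to 8.68 in DMSO and 8.95 to 9.34 with the inhibitor. SOX10, TYR, PMEL and CDH19 were under 4 in all arrays and were not tested, which left MITF. MITF stood at 0.97 ± 0.27 (limma adjusted p 0.0619; the replicate block gave 0.00729). Its dimmer probe set rose by 1.17 (limma adjusted p 0.0392). The 4 leukocyte markers summed to 8.01 to 8.34 and 8.54 to 9.05, and the 5 skeletal muscle markers, all at the floor, to 4.51 to 4.55 and 4.49 to 4.52. The part of other cell types in the differences of the cadherins and catenins was not tested.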

How the data were processed

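Each deposited log2 intensity summarises 1 probe set on 1 array. Per the submitters' processing notes, the authors used GCRMA, which corrects background, normalizes arrays and summarises probes, and Partek 6.4. The log2 scale was read from the values (1.12 to 16.0). Its settings are not stated in these sources. Control probe sets (96) were left out, and 16567 of the remaining 38439 passed the filter (43.1%). Symbols came from the platform annotation, and gene identifiers of all 9 members were found in a table of assembly GRCg7b. No sequence of these genes is shown.

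The comparison used lmFit and eBayes with a trend and no replicate block (limma 3.58.1, R 4.3.3), tested on simulated data. The simulated arrays were drawn independently, with no link between same-numbered arrays. That test therefore does not show how the fit behaves where such a link exists. Ratios were compared by exact permutation (scipy 1.17.1). A listed gene was represented by its tested probe set with the highest mean. Same-numbered arrays deviated together (correlations 0.63, 0.67 and 0.45; unlike numbers -0.45 to -0.14), so the numbers pair the samples; the labels do not describe the pairing. Deviations sum to 0 within a group, which ties the negative values to the positive ones. Only the fit with the replicate block used this pairing. The comparison behind the calls, the fits without single arrays and the exact permutation did not. The alternatives were the block, other filters, median centring, quantile normalization, no trend and leaving out each array. Named were all members, called genes of each list (up to 6), else its 2 brightest, and the 3 profiles nearest to each of 2 members. Other genes named in the text, such as ZEB1, TCF3, LEF1, CDH1 and the cell type markers, and the dimmer probe sets of listed genes, fall outside that rule and were chosen after their values were seen. The members and lists were chosen with earlier results of these data known. The number of arrays limits the precision.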

Additional observations from a re-analysis of the deposited data

How the results depend on the processing

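Of 72 values of the 6 called cadherin and catenin probe sets over 12 alternatives, 67 kept direction and call, 5 kept direction only and 0 changed sign. The 5 all belong to the middle CDH13 probe set: the 4 fits without 1 array named in the report, and no filter on low values (0.56, limma adjusted p 0.061). The brighter CDH2 probe set (0.52) passed with the replicate block, with a filter of 6 (limma adjusted p 0.0493) and with quantile normalization (0.0463). The count of called members was 6, and 5 to 7 over the alternatives. CTNNB1 changed sign with quantile normalization (0.059) and ranged from -0.035 to 0.020 without single arrays. The dimmer CDH2 (-0.16 to 0.32) and CTNND1 (-0.055 to 0.045) probe sets changed sign only among the fits without single arrays. None of the 3 was called in any of these fits. Over all probe sets 2283 were called, 4661 with the replicate block, 1285 with no filter and 1107 to 1658 without single arrays. Over the 5 lists 9 of 48 tested genes were called (18.75%), against 15.7% of all tested genes. With the replicate block 20 of the 48 were called, against 31.6% of all tested genes. With no filter 4 were called, and 2 to 6 without single arrays. Beside the changes named here and in the report, the block changed no call of a member probe set. The 3 ratios of brightest probe sets kept their direction without each single array and with the other probe sets; without single arrays they were 1.25 to 1.66 for CDH2 to CDH11, 0.70 to 0.81 for CTNNB1 to JUP and -0.44 to -0.27 for CTNNB1 to CTNND1. With the dimmer CTNND1 probe set the last ratio (-0.01) changed sign over the single arrays left out (-0.081 to 0.075). The directions with other probe sets follow from the differences of the probe sets themselves.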
